A study of Homo sapiens with 2 samples.

Results

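Actinomycin D (ActD) was set against DMSO, the vehicle control of the plates, in K562 cells, an established human line from chronic myeloid leukaemia that expresses erythroid genes. The ActD wells are the 6 of 192 wells that the deposited plate annotation names ActD, 3 on each of 2 plates of 96 wells. The reference is the 24 wells named DMSO, 12 on each plate, 4 of them in the first plate column. All wells held the same cell line and were harvested after 6 h. On each plate ActD lay in wells 21, 60 and 72, and values per well are given below in that order, plate 1 before plate 2. AZ5576 (an inhibitor of the kinase CDK9, 6 wells), DRB (an inhibitor of transcription elongation, 2 wells) and Triptolide (which acts on the general transcription factor TFIIH, 2 wells) served for direct comparisons. The labels give no dose for any compound and do not say in which solvent ActD was added. The study ran each treatment in technical duplicate, so the p-values rest on well-to-well spread within 1 experiment on 1 cell line.

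RNA was measured by MAC-seq, in which each well receives its own barcode at reverse transcription and the wells of a plate are then pooled into 1 library. ERCC RNAs, synthetic transcripts in the reverse transcription mix of every well, give a second scale besides the library itself. With library-based scaling a gene is read relative to the other human RNAs of its well, in CPM (counts scaled to a common library size). With ERCC-based scaling it is read relative to the synthetic RNAs, so that a shared loss of human RNA remains visible.

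Actinomycin D inserts between the bases of DNA and stops RNA polymerases on the template. RNA polymerase I, which makes the precursor of ribosomal RNA, is known as the most sensitive of the nuclear polymerases, and higher doses also stop RNA polymerase II. Once synthesis stops, short-lived mRNAs are lost first and stable ones make up a growing share of what remains. Mitochondrial DNA is transcribed by a polymerase of its own into long RNAs from a heavy-strand and a light-strand promoter, from which tRNAs, mRNAs and rRNAs are cut, mostly at the tRNAs that lie between them.

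The results on the mitochondrial RNAs below turn on 4 tRNA genes and their neighbours, whose sequences show how closely these genes abut. Capitals mark the tRNA gene as GENCODE 29 places it, and lower case marks up to 20 bases of the genes on either side. All are on the plus strand of the GRCh38 mitochondrial chromosome, 5′ to 3′, a build used here for sequence and gene order only, since the counts were made on GRCh37. MT-TV (valine, chrM:1582-1690) lies between MT-RNR1 and MT-RNR2, MT-TG (glycine, chrM:9971-10078) between MT-CO3 and MT-ND3, MT-TR (arginine, chrM:10385-10489) between MT-ND3 and MT-ND4L, and MT-TI (isoleucine, chrM:4243-4331) directly after MT-ND1.
MT-TV: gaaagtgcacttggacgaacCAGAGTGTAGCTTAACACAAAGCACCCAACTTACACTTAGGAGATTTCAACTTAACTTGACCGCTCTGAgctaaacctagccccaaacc
MT-TG: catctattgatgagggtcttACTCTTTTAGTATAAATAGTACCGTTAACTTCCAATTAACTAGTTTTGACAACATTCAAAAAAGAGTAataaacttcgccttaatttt
MT-TR: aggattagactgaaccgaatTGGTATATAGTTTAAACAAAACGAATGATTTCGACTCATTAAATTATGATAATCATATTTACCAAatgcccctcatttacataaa
MT-TI: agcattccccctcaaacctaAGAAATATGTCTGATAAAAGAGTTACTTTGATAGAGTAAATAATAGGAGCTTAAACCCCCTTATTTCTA

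Human counts per well were 481677 to 613248 in ActD wells and 173553 to 1030814 in DMSO wells, and ERCC counts were 161972 to 220268 and 58911 to 192176. Genes detected numbered 12336 to 13118 in ActD wells and 11467 to 15552 in DMSO wells. The 8 DMSO wells of the first plate column were shallower (median 266020 human counts) than the other 16 (median 848032.5). All 15 markers of K562 cells had counts, summing to 33697 to 38767 CPM in ActD wells and 25174 to 31532 CPM in DMSO wells. Markers of T cells (CD2 at 0) summed to 65.5 to 99.5 CPM in ActD wells and 54.2 to 103 CPM in DMSO wells. Epithelial markers (CDH1 at 0) summed to 112 to 127 CPM in ActD wells and 128 to 234 CPM in DMSO wells. Markers of B cells, monocytes, fibroblasts, endothelial cells and megakaryocytes summed to at most 20.8 CPM in any well. Differences between the 3 ActD positions were tested with both plates together, and 0 of 7906 genes were called for any pair (edgeR's quasi-likelihood test), with 251, 319 and 258 genes at an unadjusted p under 0.05. The effect of ActD differed between the plates for 0 of 6512 genes, with 219 at an unadjusted p under 0.05.

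ActD wells held less human RNA per synthetic RNA than DMSO wells. Human counts per ERCC count were 2.72, 3.50, 2.94, 2.42, 3.10 and 2.97 in the ActD wells, against a lowest, median and highest of 2.95, 4.94 and 7.03 in the DMSO wells. Of the 24 DMSO wells, 1 lay below the highest ActD well. The ActD wells averaged 2.94 ± 0.363 (SD, n = 6) and the DMSO wells 4.85 ± 0.958 (SD, n = 24), a log2 difference of -0.70, or 61.5% of DMSO (exact permutation test within plates, two-sided, p = 2.42e-05, adjusted over 4 measures 2.42e-05). The plates are technical duplicates, and that test took the wells of both plates as separate. With same-numbered wells summed over the plates ActD stood at 61.3% of DMSO (exact permutation test, p = 0.0022, the smallest that 455 arrangements allow). In the DMSO wells the ratio had a median of 3.89 in the first plate column and 5.31 elsewhere, and without the first column ActD stood at 54.7% of DMSO. Fewer cells in a well and less RNA per cell cannot be told apart in these values.

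**Figure D1:**
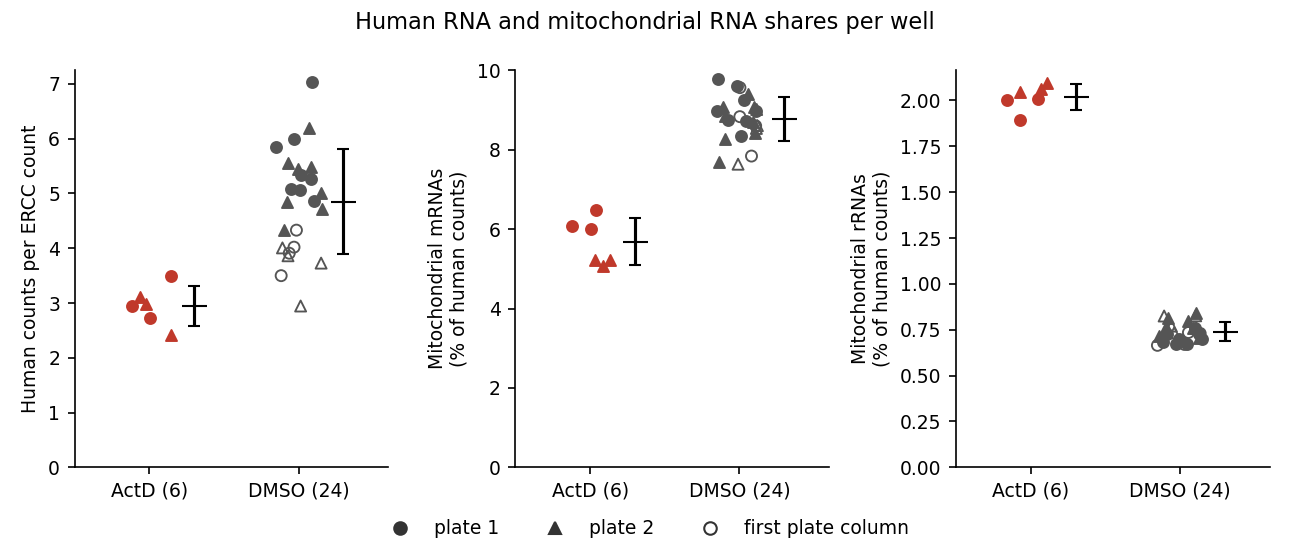
Human counts per ERCC count (left) and the shares of human counts from mitochondrially encoded mRNAs (middle) and rRNAs (right), one point per well, with ActD wells in red, DMSO wells in grey and the mean ± SD beside them. All 6 ActD wells lie below the DMSO wells for mitochondrial mRNAs and above them for mitochondrial rRNAs, while 1 DMSO well lies below the highest ActD well for human counts per ERCC count.

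Across the nucleus-encoded and mitochondrial genes together, 6512 genes had enough counts to be tested. A gene could pass this filter, of about 17.2 CPM, through the wells of 1 group alone: for 820 genes every ActD well, and for 2 genes every DMSO well, was under that level. With library-based scaling 1475 rose (22.7% of those tested) and 1713 fell (26.3%), so that 49% were called at an adjusted p under 0.05. The rises were small and the falls larger: 28 genes rose and 780 fell by at least 2-fold. For 292 of the 6512 genes every ActD well lay above every DMSO well, and for 359 below. With ERCC-based scaling these non-overlapping genes numbered 8 above and 1273 below. The median log2 fold change over all genes was -0.03. Scaling by library size alone moved that median to -0.14 and the calls to 933 higher and 2095 lower. With 1 plate alone, plate 1 gave 892 higher and 1074 lower and plate 2 gave 840 and 1145.

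With ERCC-based scaling the same genes gave 20 higher (0.307%) and 6079 lower (93.4%), with a median log2 fold change of -0.89, or 54.0% of the DMSO level. Of the 1475 genes that rose relative to the library, 1119 fell relative to the ERCC RNAs. A rise with library-based scaling below therefore means a larger share of the human RNA that remained, and the percentage of the DMSO level with ERCC-based scaling is given beside it. For comparison, ethanol, the other vehicle on the plates, differed from DMSO at 27 genes, all higher, of 8774 tested (edgeR), with 652 at an unadjusted p under 0.05. Ethanol stood only in well 95 of each plate, so this comparison had less power than that of ActD.

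**Figure D2:**
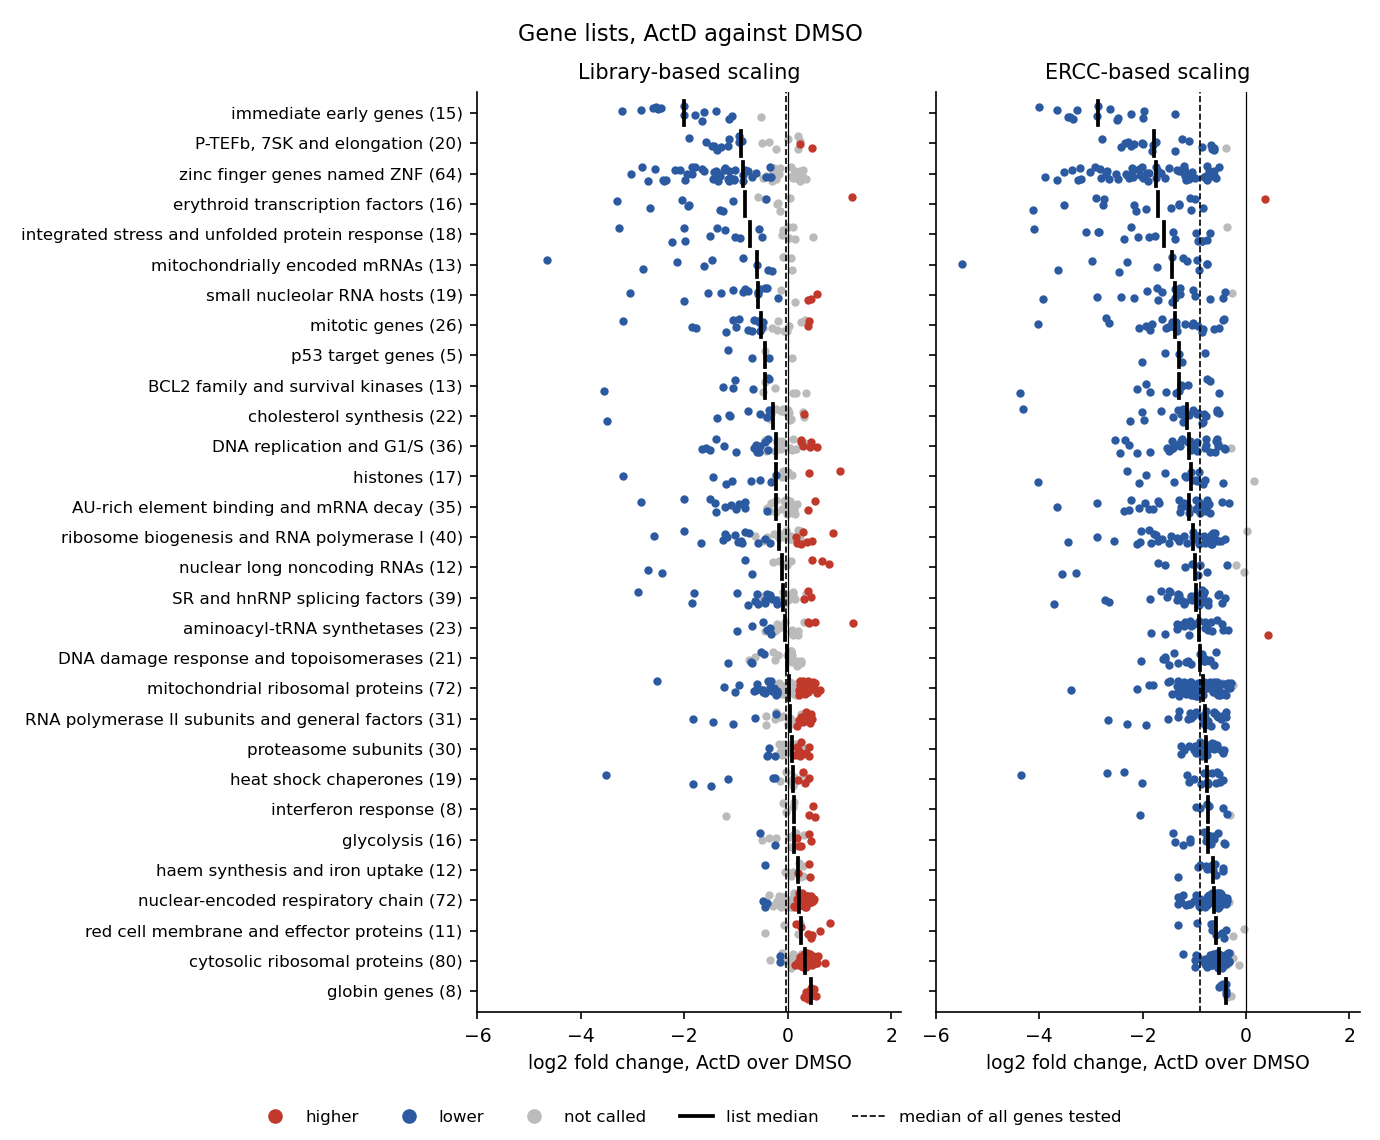
Log2 fold change, ActD over DMSO, of every tested member of 30 gene lists (members tested in brackets) with library-based scaling (left) and ERCC-based scaling (right), with a bar at each list's median and a dashed line at the median of all genes tested. List medians run from -2.01 (immediate early genes) to 0.46 (globin genes) with library-based scaling, and all lie below 0 with ERCC-based scaling, where 2 members are called higher, HEMGN among them.

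Genes of the immediate early class, whose mRNAs are made in bursts and decay within a short time, had the lowest median of all lists. Of 15 tested, 14 fell and 0 rose with library-based scaling (median log2 fold change -2.01), against 26.3% and 22.7% of all genes. With ERCC-based scaling all 15 fell, to a median of 13.8% of DMSO. FOS and JUN had too few counts to be tested. Of the 15, 10 were under the filter level in every ActD well and were tested through the DMSO wells. SRF, the member not called, encodes the transcription factor that induces many of the others and had a log2 fold change of -0.51 ± 0.29 (adjusted p = 0.14).

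MYC, a transcription factor that drives growth and ribosome production, read 4.34, 17.7, 27.9, 5.94, 21.3 and 30.8 CPM in the ActD wells, against a lowest, median and highest of 56.2, 111 and 148 CPM in the DMSO wells. Every ActD well lay below every DMSO well, and the well at position 21 was the lowest of its plate on both plates. The log2 fold change was -2.60 ± 0.19 (adjusted p = 1.24e-15), and with ERCC-based scaling MYC stood at 9.21% of DMSO.

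ID1, which keeps helix-loop-helix transcription factors from binding DNA, read 10.8, 28.3, 25.9, 21.8, 25.1 and 35.2 CPM with ActD and 98.9, 139 and 235 CPM (lowest, median, highest) with DMSO, again without overlap. Its log2 fold change was -2.54 ± 0.20 (adjusted p = 1.42e-14). The mRNA-destabilising protein gene ZFP36 fell by 2.83 and the phosphatase regulator PPP1R15A by 2.01 on the log2 scale. IER5, an immediate early gene that acts in the heat shock response, fell by 3.21 on 5 reads in all ActD wells. Outside the list, SERTAD1, a regulator of the G1 to S transition, had 8 reads in all 6 ActD wells, or 0 to 6.60 CPM, against 18.4 to 63.7 CPM in DMSO wells. Its log2 fold change was -3.88 ± 0.32, the lowest value among the nuclear genes named here. SERTAD1, ZFP36, PPP1R15A and IER5 passed the filter only through the DMSO wells, so their values are given without a test.

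The transcription factors of the erythroid lineage and the products of that lineage moved apart relative to the library. Of 16 erythroid transcription factor genes tested, 9 fell and 1 rose (median -0.82), whereas all 8 globin genes rose (median 0.46) and 7 of 11 genes for red cell membrane and effector proteins rose with 0 falling (median 0.25). Over all genes 26.3% fell and 22.7% rose. Of the 16, 3 passed the filter through the DMSO wells alone. With ERCC-based scaling 15 transcription factor genes, 6 globin genes and 9 membrane and effector genes fell, against 93.4% of all genes. The count of membrane genes that rose was 3 on plate 1 alone.

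KLF1, the activator of adult globin genes, read 28.2, 33.6, 31.9, 33.6, 38.7 and 46.2 CPM in ActD wells and 87.2, 129 and 182 CPM (lowest, median, highest) in DMSO wells. The groups did not overlap, and the log2 fold change was -1.92 ± 0.13 (adjusted p = 9.66e-17), leaving 14.8% of DMSO with ERCC-based scaling. GFI1B, a repressor needed for erythroid and megakaryocyte development, was lower by 2.67 on the log2 scale. It read 4.40 to 12 CPM with ActD and 36 to 65.4 CPM with DMSO. GATA2, which is active in progenitors before GATA1 takes over, was lower by 3.29 on the log2 scale with 11 reads in all ActD wells. GFI1B and GATA2 passed the filter only through the DMSO wells, so their values are given without a test.

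GATA1, the master regulator of the lineage, read 254, 237, 233, 188, 191 and 224 CPM with ActD and 141, 258 and 377 CPM (lowest, median, highest) with DMSO. The ActD wells lay inside the DMSO range, and the log2 fold change was -0.15 ± 0.12 (adjusted p = 0.304), with 50.4% of DMSO left on the ERCC scale. On plate 2 alone GATA1 was called lower, with a log2 fold change of -0.49. HEMGN, a nuclear protein of erythroid precursors, was the member that rose, to 75.9, 74.3, 53.8, 51.4, 56.1 and 66 CPM in the ActD wells, against 14.4, 25.5 and 39.4 CPM (lowest, median, highest) in the DMSO wells. All ActD wells exceeded all DMSO wells, with a log2 fold change of 1.24 ± 0.14 (adjusted p = 1.96e-09), and HEMGN also rose with ERCC-based scaling, to 129% of DMSO (adjusted p = 0.0439).

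HBG1, a fetal gamma-globin gene, read 9266, 9605, 9357, 9439.7, 10294 and 10785 CPM in the ActD wells and 5392, 7264 and 8147 CPM (lowest, median, highest) in the DMSO wells, so that the groups did not overlap. It rose by 0.46 ± 0.06 on the log2 scale (adjusted p = 2.05e-08) with library-based scaling and fell by 0.39 with ERCC-based scaling, to 76.3% of DMSO. HBG2 and the embryonic gene HBZ rose by 0.45 and 0.54, and stood at 76.2% and 81.9% of DMSO on the ERCC scale, where HBZ was not called. Reads of the near-identical HBG1 and HBG2 cannot be told apart with certainty, nor can those of HBA1 and HBA2.

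GYPC, a glycophorin that ties the red cell membrane to its skeleton, read 398 to 474 CPM with ActD and 253 to 363 CPM with DMSO, without overlap. It rose by 0.39 ± 0.06 (adjusted p = 1.39e-06) and BLVRB, a biliverdin reductase of red cells, by 0.25, and both fell with ERCC-based scaling. Among 12 genes of haem synthesis and iron uptake 3 rose and 1 fell with library-based scaling, against 22.7% and 26.3% of all genes. All 12 fell with ERCC-based scaling, against 93.4% of all genes. The ferritin chains FTH1 and FTL, which store iron, rose by 0.42 and 0.20. Without the first plate column 7 members of this list rose, and on plate 1 alone 1, while the lower count ran from 0 to 2 with a plate or position left out.

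**Figure D3:**
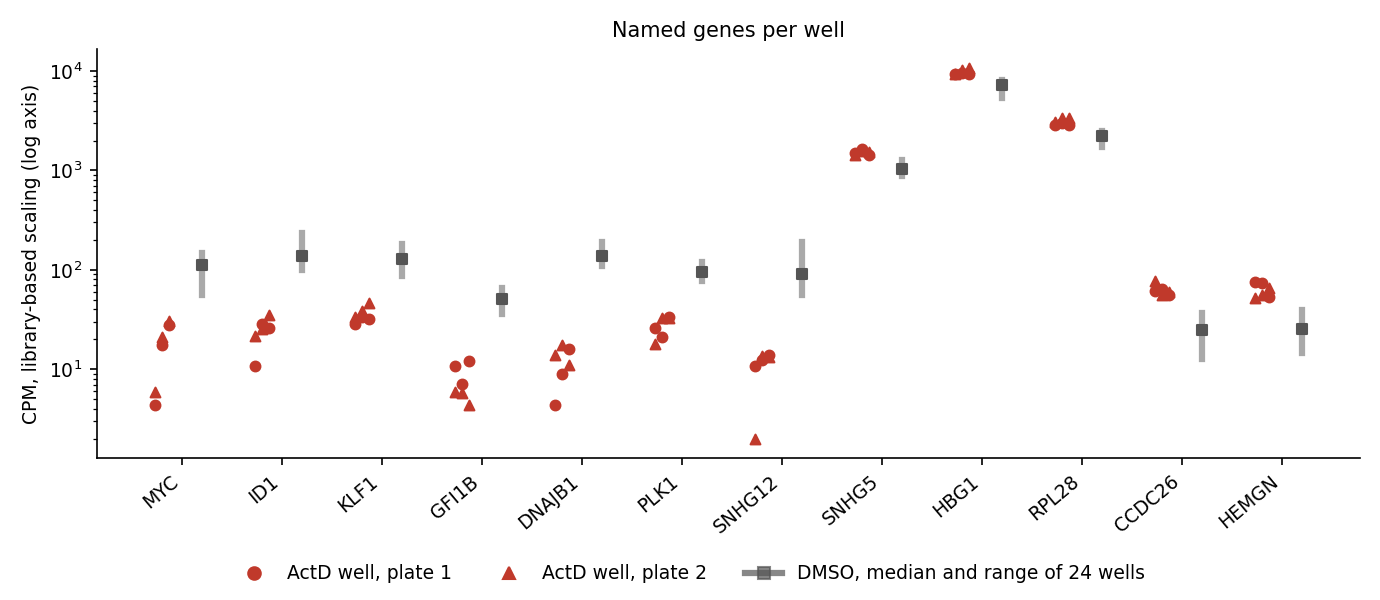
CPM on a log axis of 12 named genes in each of the 6 ActD wells (red, circles for plate 1 and triangles for plate 2), with the median and the range of the 24 DMSO wells beside them (grey). MYC, ID1, KLF1, GFI1B, DNAJB1, PLK1 and SNHG12 lie below the DMSO range in every ActD well, and SNHG5, HBG1, RPL28, CCDC26 and HEMGN lie above it. Of all 6512 genes tested, 359 lay below and 292 above in this way. GFI1B and SNHG12 passed the filter only through the DMSO wells.

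Genes of the transcription machinery itself were divided by role. Of 20 genes for P-TEFb (the kinase CDK9 with a cyclin T partner, which releases paused RNA polymerase II), its inhibitory 7SK complex and elongation factors, 11 fell and 2 rose (median -0.91), against 26.3% and 22.7% of all genes; 7 of the 20 were tested through the DMSO wells alone. With ERCC-based scaling 19 of the 20 fell, and plate 1 alone gave 6 lower and 0 higher with library-based scaling.

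BRD2, a bromodomain protein that binds acetylated histones, read 26, 15.9, 15.9, 7.91, 11.6 and 8.79 CPM with ActD and 28.5, 51.6 and 103 CPM (lowest, median, highest) with DMSO, without overlap, and its log2 fold change was -1.90 ± 0.26 (adjusted p = 5.26e-08). HEXIM1, the protein that holds P-TEFb inactive in the 7SK complex, had a log2 fold change of -1.46 ± 0.29, with 1 ActD well inside the DMSO range. HEXIM1 passed the filter only through the DMSO wells, so its value is given without a test. MEPCE, which caps 7SK RNA, fell by 1.42, and CDK7, the kinase of TFIIH, by 1.37. CDK7 likewise passed the filter only through the DMSO wells, so its value is given without a test. RNA polymerase II subunits and general factors were mixed, with 10 of 31 higher and 5 lower (7 and 6 by library size alone). Over all genes 22.7% were higher and 26.3% lower. With ERCC-based scaling all 31 were lower. GTF2B, which places the polymerase at the start site, was lower by 1.83, given without a test since it passed the filter only through the DMSO wells. The small subunit gene POLR2I rose by 0.45 with library-based scaling and stood at 76.1% of DMSO with ERCC-based scaling. On each plate alone 6 of these genes rose.

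Splicing factor genes of the SR and hnRNP families gave 15 lower and 3 higher of 39, against 26.3% and 22.7% of all genes. The lower count was 9 on either plate alone and 7 without the ActD wells at position 60. On the ERCC scale all 39 were lower. CLK1, a kinase that phosphorylates SR proteins, fell by 2.89 on 8 reads in all ActD wells, with 5 of the 6 wells below the DMSO range. SRSF4 fell by 0.97, and SRSF3 rose by 0.44 with library-based scaling and fell by 0.40 with ERCC-based scaling. RSRC2, RNF113A and ESS2, each linked to RNA splicing, were among the 15 largest falls and had log2 fold changes of -3.08, -3.07 and -2.96. CLK1, RSRC2 and RNF113A passed the filter only through the DMSO wells, so their values are given without a test. Among 35 genes for binding of AU-rich elements and mRNA decay 12 fell and 2 rose (all 35 fell on the ERCC scale), and 7 were tested through the DMSO wells alone. ZFP36L2, which recruits deadenylases to AU-rich mRNAs, fell by 2.01, and the exosome subunit gene EXOSC4 by 1.10. ZFP36L2 was tested through the DMSO wells alone, so its value is given without a test.

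Relative to the library most cytosolic ribosomal protein genes rose, while the genes that assemble ribosomes were mixed. Relative to the ERCC RNAs nearly all members of both lists fell. Of 80 ribosomal protein genes 61 rose and 2 fell relative to the library (median 0.33), against 22.7% and 26.3% of all genes. Relative to the ERCC RNAs 74 fell and 0 rose, to a median of 69.6% of DMSO. On plate 2 alone 0 fell with library-based scaling. RPL28, of the large subunit, read 2869, 2991, 2850.2, 3075, 3377 and 3361 CPM in the ActD wells and 1718, 2224 and 2469 CPM (lowest, median, highest) in the DMSO wells. The groups did not overlap, and the log2 fold change was 0.52 ± 0.06 (adjusted p = 3.37e-09). With ERCC-based scaling RPL28 fell by 0.33, to 79.6% of DMSO. RPS6, of the small subunit, rose by 0.42 relative to the library and stood at 75.2% of DMSO on the ERCC scale.

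Of 40 genes for ribosome biogenesis and RNA polymerase I, 15 fell and 7 rose (median -0.17), against 26.3% and 22.7% of all genes. The higher count dropped to 3 on plate 2 alone and was 2 when library size alone set the scale. On the ERCC scale 39 fell, against 93.4% of all genes. NOP16, a nucleolar protein of large-subunit assembly, read 88.9, 115, 81.7, 96.9, 101 and 109.9 CPM with ActD and 163, 225 and 287 CPM (lowest, median, highest) with DMSO. No ActD well reached the DMSO range, and the log2 fold change was -1.20 ± 0.08 (adjusted p = 2.29e-16). BYSL, needed for the small subunit, fell by 2.58, and POLR1C, a subunit shared by RNA polymerases I and III, by 1.18. The nucleolar helicase DDX21 rose by 0.88 ± 0.08 relative to the library, with 173 to 271 CPM in ActD wells and 89.9 to 172 CPM in DMSO wells, and stood at 102% of DMSO on the ERCC scale.

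Host genes of small nucleolar RNAs, whose introns carry the guides for ribosomal RNA modification, gave 14 lower and 3 higher of 19 (median -0.57), and 18 lower with ERCC-based scaling. The shares over all genes with library-based scaling were 26.3% lower and 22.7% higher. SNHG12 read 10.8, 12.4, 13.9, 1.98, 13.5 and 13.2 CPM in ActD wells and 56.3, 91.5 and 191 CPM (lowest, median, highest) in DMSO wells, without overlap. Its log2 fold change was -3.05 ± 0.27, given without a test since SNHG12 passed the filter only through the DMSO wells. SNHG5 was above the DMSO range in every ActD well, with 1507, 1653, 1442, 1417, 1573 and 1543 CPM against 888, 1035 and 1260.0 CPM (lowest, median, highest) in DMSO wells. It rose by 0.57 ± 0.05 with library-based scaling (adjusted p = 2.84e-13) and had a log2 fold change of -0.27 ± 0.14 with ERCC-based scaling (adjusted p = 0.0647). ZFAS1 fell by 0.58. SNORD104, a small nucleolar RNA gene counted on its own, was lower by 3.31 on 18 reads in all ActD wells. SNORD104 too passed the filter only through the DMSO wells, so its value is given without a test. Reads of an intronic RNA and of its host cannot be separated with certainty here.

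Stress genes were mostly lower. Of 18 genes of the integrated stress and unfolded protein responses 11 fell and 0 rose (median -0.74), against 26.3% and 22.7% of all genes. On the ERCC scale 17 fell, while 5 were tested through the DMSO wells alone. DDIT4, an inhibitor of mTORC1 signalling, was lower by 3.26 on the log2 scale, with 1.98 to 8.79 CPM in ActD wells and 35.7 to 87.8 CPM in DMSO wells. DDIT4 passed the filter only through the DMSO wells, so its values are given without a test. SDF2L1, a chaperone cofactor of the endoplasmic reticulum, read 445, 473, 532, 491, 493 and 459 CPM with ActD, against 819.9, 933 and 1101 CPM (lowest, median, highest) with DMSO. The groups did not overlap, and the log2 fold change was -0.92 ± 0.06 (adjusted p = 5.59e-17).

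Heat shock genes were split, with 6 lower and 4 higher of 19 (2 higher on plate 2 alone), against 26.3% lower and 22.7% higher over all genes, and with ERCC-based scaling all 19 fell; the log2 fold changes of those that fell ran from -3.51 (DNAJB1) to -0.24 (STIP1). DNAJB1, the co-chaperone that delivers clients to HSP70, read 4.34, 8.85, 15.9, 13.8, 17.4 and 11 CPM in ActD wells and 108, 138 and 191 CPM (lowest, median, highest) in DMSO wells. Every ActD well was below every DMSO well, with a log2 fold change of -3.51 ± 0.16 (adjusted p = 1.73e-23) and 4.88% of DMSO left on the ERCC scale. HSPA1A, an inducible HSP70 gene nearly identical to HSPA1B, fell by 1.49. HSPB1, DNAJA1, HSPE1 and FKBP4 rose by 0.33, 0.40, 0.20 and 0.30 with library-based scaling, and had log2 fold changes of -0.52, -0.45, -0.65 and -0.56 with ERCC-based scaling.

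Of 13 BCL2 family and survival kinase genes 7 fell and 0 rose (4 fell on plate 2 alone), against 26.3% and 22.7% of all genes. MCL1, an unstable protein that blocks apoptosis, read 15.2, 12.4, 12, 13.8, 32.9 and 6.60 CPM with ActD and 23.3, 37.8 and 55.4 CPM (lowest, median, highest) with DMSO; 1 ActD well lay inside the DMSO range. Its log2 fold change was -1.25 ± 0.21 (adjusted p = 5.03e-06). PIM3 and PIM1, growth-promoting kinases, fell by 3.54 and 1.02. PIM3 passed the filter only through the DMSO wells, so its value is given without a test. Of 5 p53 target genes tested 3 fell and 0 rose, against 26.3% and 22.7% of all genes, and 2 of the 5 were tested through the DMSO wells alone. With ERCC-based scaling all 5 fell, against 93.4% of all genes. Among the 3 was GADD45A, which fell by 1.15, while CDKN1A had too few counts. K562 cells are known to lack working p53. Of 21 DNA damage and topoisomerase genes 5 fell and 0 rose (2 to 5 fell when a plate or a position was left out, and 1 rose on plate 2 alone), against 26.3% lower over all genes.

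Cell cycle genes were lower in part. Of 26 mitotic genes 15 fell and 2 rose (1 to 3 rose with a plate or position left out; median -0.51), and of 36 genes for DNA replication and the G1 to S transition 15 fell and 6 rose (3 rose on plate 1 alone). Over all genes 26.3% fell and 22.7% rose. With ERCC-based scaling 26 and 35 fell, against 93.4% of all genes. PLK1, the kinase that drives entry into and progress through mitosis, read 26, 21.2, 33.9, 17.8, 32.9 and 33 CPM in ActD wells and 77.6, 95.6 and 119 CPM (lowest, median, highest) in DMSO wells. The groups did not overlap, and the log2 fold change was -1.85 ± 0.13 (adjusted p = 1.88e-16). The spindle kinase AURKA fell by 1.78, and MAD2L1BP, which switches off the spindle checkpoint, was lower by 3.18. MAD2L1BP passed the filter only through the DMSO wells, so its value is given without a test. CDT1, which loads the replicative helicase, fell by 1.49, and RFC4, a subunit of the clamp loader, by 1.23.

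Histone genes gave 8 lower and 2 higher of 17, with 4 lower on plate 2 alone, and 16 lower on the ERCC scale. The shares over all genes with library-based scaling were 26.3% lower and 22.7% higher. H4C3, a replication-dependent histone H4 gene, fell by 3.19, with 12.4 to 30.8 CPM in ActD wells and 123 to 300.2 CPM in DMSO wells. H3-3A, which encodes the replacement histone H3.3 and gives a polyadenylated mRNA, rose by 1.01 ± 0.12 and stood at 112% of DMSO on the ERCC scale (adjusted p = 0.334). The processed copy H3P16 rose by 1.27; the copies are near-identical, so how their reads were divided is uncertain.

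Zinc finger genes named ZNF, a family of DNA-binding repressors, had 41 of 64 lower and 0 higher (median -0.87), against 26.3% and 22.7% of all genes. On the ERCC scale all 64 were lower. Of the 64, 30 were tested through the DMSO wells alone. ZNF581 was lower by 3.04 and ZNF584 by 2.35, on 19 and 10 reads in all ActD wells. Both are among those 30 genes, so their values are given without a test. Among 12 nuclear long noncoding RNAs 4 fell and 3 rose, near the 26.3% and 22.7% of all genes. MIR17HG, the host of the miR-17 cluster, was lower by 2.43, with 1.98 to 11.6 CPM in ActD wells and 27.1 to 93 CPM in DMSO wells. MIR17HG passed the filter only through the DMSO wells, so its values are given without a test. NEAT1, the scaffold of paraspeckles, had a log2 fold change of -0.83 ± 0.16 (adjusted p = 3.36e-05), and MALAT1, a stable RNA of nuclear speckles, -0.28 ± 0.19 (adjusted p = 0.210). PVT1, the noncoding neighbour of MYC, moved opposite to it: it read 599, 611, 673, 520.4, 605 and 602 CPM in ActD wells and 205, 361 and 415 CPM (lowest, median, highest) in DMSO wells. PVT1 rose by 0.80 ± 0.09 (adjusted p = 2.29e-10) and stood at 97.6% of DMSO on the ERCC scale. CYTOR rose by 0.66 with library-based scaling and was not called with ERCC-based scaling.

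Of 72 nucleus-encoded respiratory chain genes 41 rose and 3 fell (median 0.21), and 71 fell on the ERCC scale. The lower count was 5 without the first plate column and 12, with 24 higher, when library size alone set the scale. ATP5ME, of ATP synthase, and NDUFS6, of complex I, rose by 0.41 and 0.45, and UQCRFS1, the Rieske protein of complex III, fell by 0.48. COA7, an assembly factor of cytochrome c oxidase outside that list, was lower by 3.48 on 10 reads in all ActD wells. COA7 passed the filter only through the DMSO wells, so its value is given without a test. Mitochondrial ribosomal protein genes were evenly split, with 21 higher and 20 lower of 72 (13 higher on plate 1 alone and 11 lower on plate 2 alone), close to the 22.7% and 26.3% of all genes, and with 15 higher and 27 lower by library size alone. MRPL47 rose by 0.54 and MRPL17 fell by 2.53.

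Over all genes, 22.7% rose and 26.3% fell with library-based scaling. Glycolysis gave 5 higher and 2 lower of 16, 2 and 0 on plate 1 alone and 2 and 3 by library size alone, and GAPDH and LDHA, its dehydrogenases, rose by 0.45 and 0.42 with library-based scaling and fell by 0.41 and 0.42 with ERCC-based scaling. Proteasome subunits gave 10 higher and 4 lower of 30, 5 and 1 on plate 2 alone and 6 and 8 by library size alone, with PSMA1 higher by 0.41 and the ubiquitin receptor ADRM1 lower (log2 fold change -0.36). Cholesterol genes gave 8 lower and 1 higher of 22 (5 lower on plate 2 alone). Among them MVK, mevalonate kinase, had a log2 fold change of -1.11. Of 8 interferon response genes 3 rose, all of the IFITM family, with IFITM1 at 0.49 ± 0.06. ATG101, which starts autophagy as part of the ULK1 complex, was lower by 3.00, given without a test since it passed the filter only through the DMSO wells. ACTB, cytoplasmic actin, rose by 0.35 ± 0.06 relative to the library and stood at 71% of DMSO relative to the ERCC RNAs. Metallothionein genes had too few counts to be tested.

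Aminoacyl-tRNA synthetase genes gave 6 lower and 4 higher of 23, or 1 lower on plate 2 alone and 1 higher on plate 1 alone, and 22 lower with ERCC-based scaling. Over all genes 26.3% fell and 22.7% rose with library-based scaling. FARSA, a chain of the phenylalanyl-tRNA synthetase, fell by 0.98.

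Mitochondrially encoded RNAs held the gene with the largest fall, MT-ND6, and the one with the largest rise, MT-TV, of those named. Their mRNAs took up 5.68% ± 0.591 of human counts in ActD wells (SD, n = 6; 5.07% to 6.49%), against 8.77% ± 0.562 in DMSO wells (SD, n = 24; 7.64% to 9.78%). The difference was -3.09 percentage points (exact permutation test within plates, two-sided, p = 4.83e-06, the smallest the design allows; adjusted over 4 measures 6.44e-06). The rRNAs took up 2.02% ± 0.0702 in ActD wells (1.89% to 2.1%), against 0.740% ± 0.0529 in DMSO wells (0.665% to 0.842%), higher by 1.28 points with the same p. For both measures no ActD well overlapped the DMSO wells. All mitochondrial RNAs together made up 7.84% ± 0.512 with ActD and 9.62% ± 0.565 with DMSO, with the same p, and here 2 DMSO wells lay below the highest ActD well. These tests took the duplicate wells of the plates as separate. On either plate alone the p of each share was 0.0022 (exact permutation test), the smallest that 455 arrangements allow.

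Of the 13 mitochondrial mRNAs 9 fell and 0 rose with library-based scaling (26.3% of all genes fell), and all 13 fell with ERCC-based scaling. MT-ND6, a complex I subunit and the only mRNA cut from the light-strand transcript, was at the low end. It read 13, 8.85, 5.98, 5.94, 3.87 and 13.2 CPM in the ActD wells and 161, 219.7 and 274 CPM (lowest, median, highest) in the DMSO wells. No ActD well came near the DMSO range, and the log2 fold change was -4.65 ± 0.17, on 25 reads in all ActD wells. MT-ND6 was under the filter level of about 17.2 CPM in every ActD well. It passed the filter only through the DMSO wells, so its values are given without a test. With ERCC-based scaling 2.24% of DMSO remained. Whether the authors counted by strand is not given in the sources used here.

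MT-ND3, another complex I subunit, read 343, 405, 470.0, 388, 321 and 343 CPM with ActD and 2126, 2636 and 3627 CPM (lowest, median, highest) with DMSO, without overlap. Its log2 fold change was -2.80 ± 0.10 (adjusted p = 5e-28), leaving 8.03% of DMSO on the ERCC scale. MT-CYB, the cytochrome b of complex III, fell by 2.13, to 12.7% of DMSO on the ERCC scale, MT-ND1 by 1.62, to 18.2%, and MT-ND2 by 1.47, to 20.2%. In these 3 genes also every ActD well was below every DMSO well.

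For 4 mitochondrial mRNAs no change in their share of the library was called. MT-CO1 and MT-CO2, the catalytic subunits of cytochrome c oxidase, had log2 fold changes of 0.09 ± 0.07 and 0.07 ± 0.05. MT-ATP6, of ATP synthase, and MT-ND4L, of complex I, had -0.07 ± 0.06 and -0.09 ± 0.07. With ERCC-based scaling these 4 stood at 59.1%, 59.1%, 53% and 52.2% of DMSO, near the 54.0% of the median gene, and all 4 were called lower. MT-CO3 fell by 0.38, MT-ND4 by 0.30, MT-ND5 by 0.59 and MT-ATP8 by 0.86 with library-based scaling. Without the first plate column MT-ATP6 and MT-ND4L were also called lower.

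Both mitochondrial rRNAs rose with either scale. MT-RNR1, the small-subunit rRNA, read 2359, 2419, 2516, 2675, 2741 and 2598 CPM in the ActD wells and 653, 791 and 1029 CPM (lowest, median, highest) in the DMSO wells. The groups were far apart, with a log2 fold change of 1.67 ± 0.05 (adjusted p = 3.11e-30). Per 100000 ERCC counts it read 601, 779, 674, 614, 801 and 729.8 with ActD and 243, 384 and 549.5 (lowest, median, highest) with DMSO, also without overlap, a rise to 178% of DMSO (adjusted p = 8.18e-08). MT-RNR2, the large-subunit rRNA, rose by 1.56 ± 0.04 relative to the library, with 17854 to 19515 CPM in ActD wells and 5666 to 7250.3 CPM in DMSO wells, and to 165% of DMSO on the ERCC scale.

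**Figure D4:**
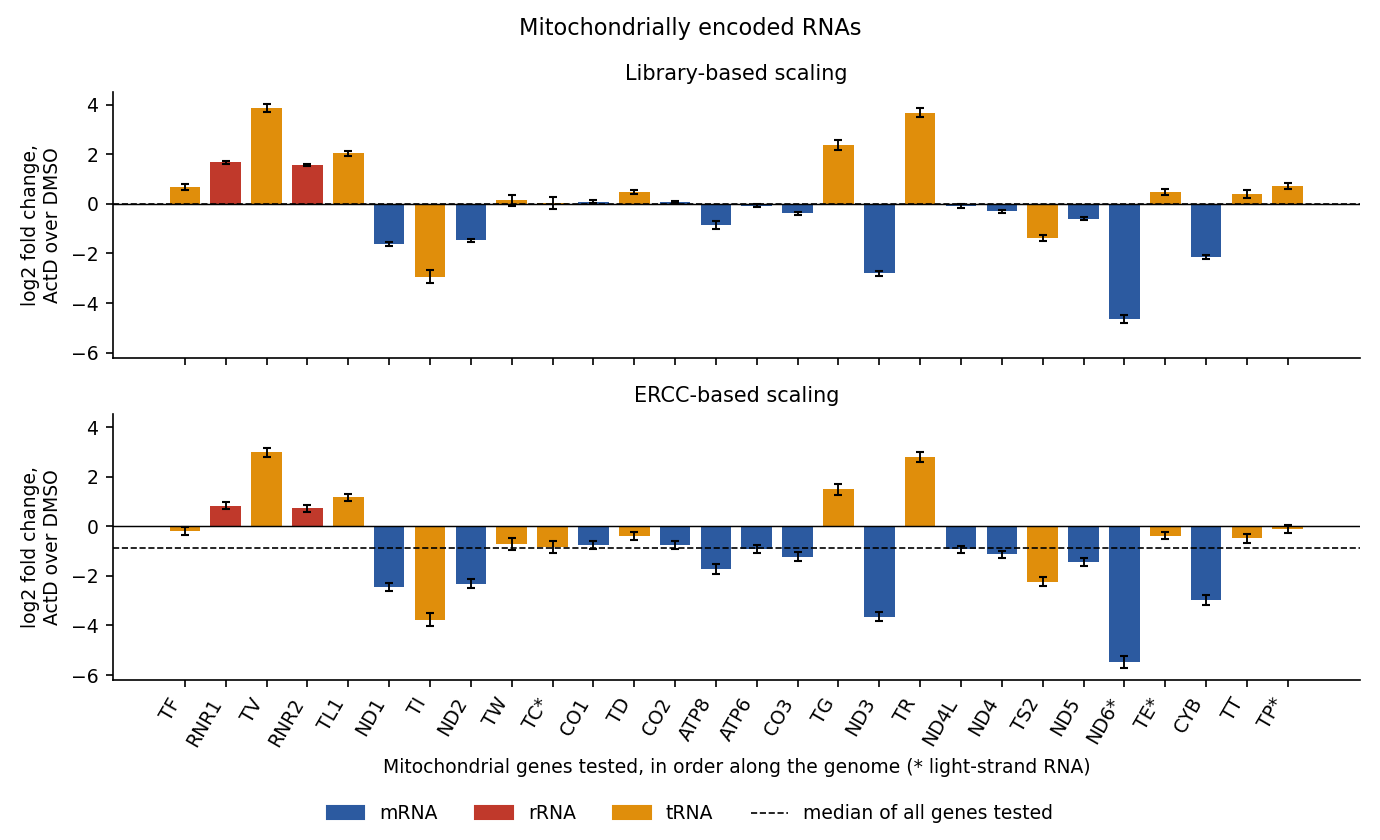
Log2 fold change ± SE, ActD over DMSO, of each mitochondrial gene tested in its order along the genome (gene names without the MT prefix), with library-based scaling (top) and ERCC-based scaling (bottom); the dashed line is the median of all genes tested. The rRNA genes RNR1 and RNR2 and the tRNA genes TV, TL1, TG and TR lie above 0 on both scales, while ND6, TI, ND3 and CYB lie at -2.13 or lower on both.

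Of the 22 mitochondrial tRNA genes 13 had enough counts to be tested. Relative to the library 9 rose and 2 fell, and relative to the ERCC RNAs 4 rose and 7 fell. These counts include 2 genes (MT-TG and MT-TR) that passed the filter through the ActD wells alone and 1 (MT-TI) through the DMSO wells alone. For these genes the counts are not a test of a change. MT-TV, the tRNA gene between the rRNA genes, read 104, 138, 121, 251, 263 and 255 CPM in the ActD wells and 2.07, 11.9 and 33 CPM (lowest, median, highest) in the DMSO wells. All ActD wells exceeded all DMSO wells, with values of 104 to 138 CPM on plate 1 and 251 to 263 CPM on plate 2, where the DMSO medians were 9.54 and 15.1 CPM. The log2 fold change was 3.87 ± 0.15 (adjusted p = 1.91e-25), and 2.98 ± 0.18 with ERCC-based scaling.

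The tRNA genes on either side of MT-ND3 had higher levels with ActD. MT-TG, just before it, read 28.2, 42.5, 19.9, 73.2, 69.6 and 50.6 CPM in ActD wells and 2.07, 8.87 and 15.9 CPM (lowest, median, highest) in DMSO wells, with a log2 fold change of 2.37. MT-TR, just after it, read 41.2, 69, 37.8, 115, 69.6 and 96.7 CPM in ActD wells and 2.21, 5.28 and 11 CPM (lowest, median, highest) in DMSO wells, with a log2 fold change of 3.68. For both, every ActD well was above every DMSO well with library-based scaling. These genes were under the filter level of about 17.2 CPM in every DMSO well and were tested only because the ActD wells passed it, so their values are given without a test. On the ERCC scale they stood at 279.7% and 694% of DMSO.

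MT-TI, which follows MT-ND1, fell with it. It read 4.34, 7.08, 9.96, 3.96, 5.80 and 4.40 CPM with ActD and 28.6, 44.6 and 83.6 CPM (lowest, median, highest) with DMSO, without overlap, on 18 reads in all ActD wells. Its log2 fold change was -2.94 ± 0.26, given without a test since MT-TI passed the filter only through the DMSO wells. MT-TS2 fell by 1.39 and MT-TL1, which follows MT-RNR2, rose by 2.04 ± 0.09. MT-TF, which precedes MT-RNR1, rose by 0.68 ± 0.13 relative to the library and was at 86.8% of DMSO on the ERCC scale, with no call. A read on a tRNA gene cannot be assigned here to the mature tRNA or to a longer RNA that holds it.

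Most of the 20 genes that rose with ERCC-based scaling were mitochondrial or copies of mitochondrial genes. MT-TV, MT-TR, MT-TG, MT-TL1, MT-RNR1 and MT-RNR2 were joined by nuclear copies of MT-RNR2 of the MTRNR2L family, such as MTRNR2L1 (log2 fold change 1.10 ± 0.13 on the ERCC scale). MT-TR and MT-TG passed the filter through the ActD wells alone, so their place among the 20 is not a test of a rise. Reads of these copies and of MT-RNR2 may be divided between them in ways that cannot be checked. The nuclear genes other than such copies included HEMGN, the long noncoding RNA CCDC26 and the histone copy H3P16. A further 4 lines had clone names or identifiers only, AC025627.4, AC114801.3, ENSG00000266658 and ENSG00000242716, and what they are copies of, if anything, was not established here. CCDC26 read 60.7, 63.7, 55.8, 77.2, 56.1 and 59.4 CPM in ActD wells and 12.6, 24.6 and 36.9 CPM (lowest, median, highest) in DMSO wells. It lay above the DMSO range in every ActD well and rose by 1.37 ± 0.14 with library-based scaling, and to 141% of DMSO on the ERCC scale (adjusted p = 0.00334). DDX21, PVT1 and H3-3A, described above, were among the list members nearest to 0 on the ERCC scale.

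Direct comparisons with other transcription inhibitors on the same plates showed where ActD differed from them beyond their shared DMSO wells. Of 7666 genes tested, 123 were higher and 140 lower with ActD than with AZ5576 (3.43% called), 48 and 79 against DRB (1.66%), and 24 and 45 against Triptolide (0.9%). All 13 mitochondrial mRNAs were lower with ActD than with each of the 3 compounds, and 13, 9 and 9 of them with ERCC-based scaling. On 1 plate alone the counts were 36 to 40 higher and 67 to 71 lower against AZ5576, 18 to 24 and 41 to 42 against DRB, and 8 to 12 and 20 to 25 against Triptolide. The doses are not given, so the compounds cannot be matched for strength. Over all genes the 95% interval of a difference reached a median of 0.49, 0.69 and 0.76 on either side on the log2 scale, so smaller differences between the compounds were not resolved.

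MT-ND6 was lower with ActD by log2 differences of -5.04 (AZ5576), -4.76 (DRB) and -5.18 (Triptolide), the largest of the 13, and the smallest were -0.49 (MT-CO2), -0.34 (MT-CO2) and -0.43 (MT-CO1). The same model gave MT-ND6 a log2 fold change against DMSO of -4.62 with ActD, 0.42 with AZ5576, 0.14 with DRB and 0.56 with Triptolide. Against DMSO the other compounds raised the library share of most of these mRNAs: AZ5576 all 13 (0.42 to 0.85), DRB 11 (0.14 to 0.82 over the 13) and Triptolide 12 (0.31 to 0.81 over the 13). Their comparisons with DMSO were run with library-based scaling only, so whether these mRNAs rose relative to the ERCC RNAs was not tested. MT-RNR1 was higher with ActD by 1.23, 1.39 and 1.17 than with AZ5576, DRB and Triptolide, MT-RNR2 by 0.75, 0.73 and 0.85, and MT-TV by 3.72, 4.15 and 3.38. With ERCC-based scaling the MT-RNR2 differences were 0.58 against AZ5576 (adjusted p = 0.0396), 0.70 against DRB (adjusted p = 0.265) and 0.76 against Triptolide (adjusted p = 0.243), so the last pair was not called, while those of MT-RNR1 and MT-TV were called for all 3 compounds.

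**Figure D5:**
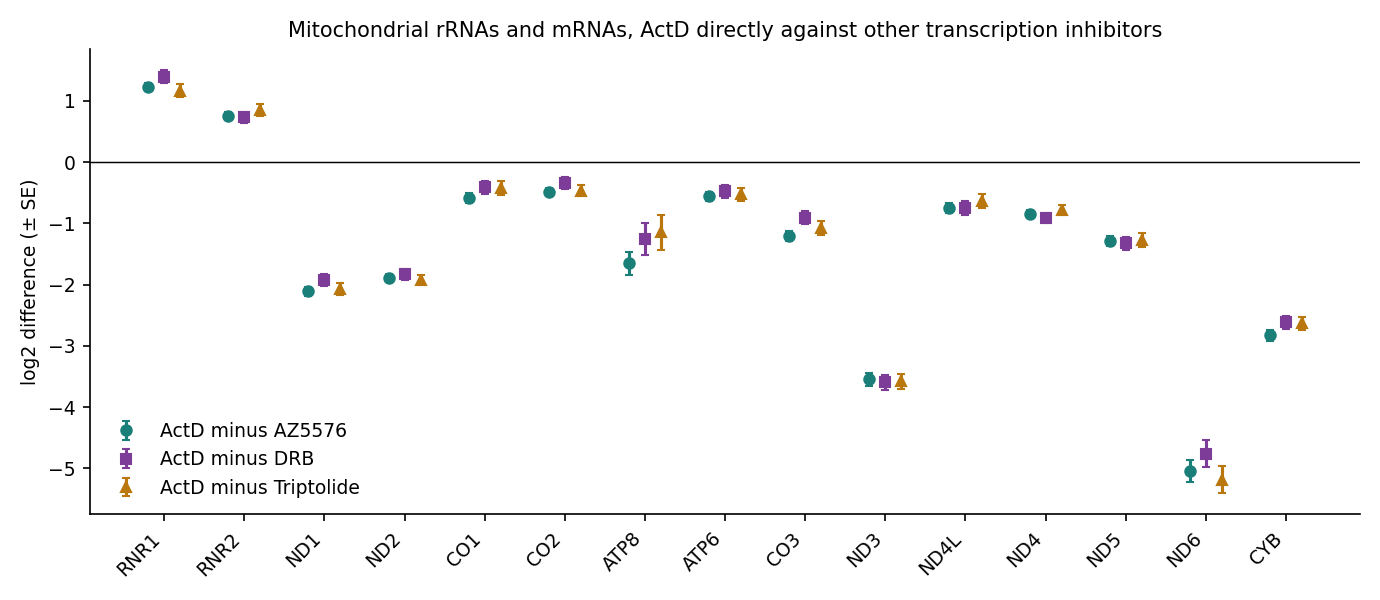
Log2 difference ± SE of mitochondrial rRNAs and mRNAs (names without the MT prefix) between ActD wells and AZ5576 (teal circles), DRB (purple squares) or Triptolide (ochre triangles) wells, with library-based scaling. The rRNAs RNR1 and RNR2 lie above 0 and all 13 mRNAs below 0 for all 3 compounds, with ND6 lowest, between -4.76 and -5.18.

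Few nuclear genes in the lists differed directly. KLF1 was higher with ActD than with DRB by 2.11 ± 0.44 (adjusted p = 0.00114); its log2 fold changes against DMSO were -1.90 with ActD and -4.0 with DRB. HEMGN was higher with ActD than with Triptolide by 1.62 ± 0.35 (adjusted p = 0.00282), with values of 1.26 with ActD and -0.36 with Triptolide against DMSO; with ERCC-based scaling the difference was 1.53 (adjusted p = 0.0561). NAT9, an N-acetyltransferase, was higher with ActD than with AZ5576 by 1.70 ± 0.34 (adjusted p = 0.000402). Of 17 erythroid transcription factors tested, 3 were higher with ActD than with AZ5576, 2 than with DRB and 1 than with Triptolide. Over all 7666 genes the higher counts were 123, 48 and 24. Of 19 immediate early genes 2 were lower with ActD than with AZ5576, 2 than with DRB and 0 than with Triptolide. Over all 7666 genes the lower counts were 140, 79 and 45.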

How the data were processed

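MAC-seq counts of K562 cells after 6 h, from 2 pooled plates, were used, with wells named by the deposited annotation. The tables the authors deposited were classed here as estimated counts, since 6 summary lines, left out, are fractional, but all 57905 gene lines and 92 ERCC lines hold whole counts. They are reads, not molecules (1.93 to 2.34 reads per unique molecular identifier in ActD wells, 1.63 to 2.50 in DMSO wells). The submitters' processing notes name cutadapt 2.1, FastQC 0.11.6, R 4.0.2, bcl2fastq 2.17.1.14 and the build GRCh37 (hg19). The sources used here give no aligner, counter, annotation or strand setting.

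The 30 wells were fitted with edgeR 4.0.16 (R 4.3.3), treatment plus plate, quasi-likelihood test, Benjamini-Hochberg adjustment over all 6512 human genes kept by filterByExpr (minimum count 10, about 17.2 CPM, in enough wells), threshold 0.05. Library-based scaling used TMM factors, and ERCC-based scaling used the summed ERCC counts as library size. The fit for direct contrasts also held the wells of the other compounds. Per-well measures were tested by exact permutation of wells within plates (207025 arrangements, smallest p 4.83e-06). The duplicate wells of a position were permuted as separate wells. With same-numbered wells summed over the plates, edgeR called 1664 genes higher and 1946 lower of 8922 tested (library-based scaling). Counts for ActD against DMSO were simulated for 6512 genes in independent wells, with few genes changed and as many up as down. On them edgeR recovered 98% of 2-fold and 100% of 4-fold changes with 9 false calls. The real data had 49% of genes called and wells duplicated over the plates, so these figures may not hold there.

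Same-numbered wells of the plates hold the same treatment and barcode. None of these pairs was identical (chi-square per degree of freedom 1.10 to 1.81). Well numbers were read row by row to find plate columns. Symbols, gene order and mitochondrial sequences come from tables of Ensembl identifiers, GENCODE 29 and GRCh38, and 6415 of 6512 genes tested had a symbol.

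Named genes come from the 15 largest changes in each direction (mean log2 CPM 5 or more, 1 sign in every ActD well), the members with the smallest p of each list (2 to 4), the genes that rose and the 5 list members nearest 0 with ERCC-based scaling, the 4 largest per direction and direct contrast, all mitochondrial genes, and a few looked up everywhere, such as MYC and GATA1. Other list members with values (SRF, STIP1, HSPB1, DNAJA1, HSPE1 and FKBP4) were chosen after their values were seen. Members and lists were chosen with earlier results of these data known. Alternatives were DESeq2 1.42.0, limma 3.58.1 (voom), other scalings and filters, and left-out plates, positions and wells. Some genes that the rule picks are not reported here.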

Additional observations from a re-analysis of the deposited data

Results flagged for a closer look

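Among 110 groups of ActD wells examined (the CPM of named genes and the per-well measures), 6 held a well whose gap to the nearest of the others exceeded Dixon's 95% critical value for 6 samples; chance alone gives about 1 in 20. SNHG12 was at 1.98 CPM in plate 2 well 21, against 10.8 to 13.9 CPM in the other ActD wells. CCDC26 was at 77.2 CPM in the same well, against 55.8 to 63.7 CPM. MT-RNR2 was at 17854 CPM in plate 1 well 21, against 19046 to 19515 CPM. GYPC and MCL1 were at 474 and 32.9 CPM in plate 2 well 60, against 398 to 424 CPM and 6.60 to 15.2 CPM. ACTB was at 1141 CPM in plate 1 well 72, against 1063 to 1092 CPM. The effect of ActD was called different between the plates for 0 of 6512 genes (edgeR's quasi-likelihood test), with 219 at an unadjusted p under 0.05.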

How the results depend on the processing

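Calls with library-based scaling were 933 higher with library size alone, 20 higher and 6079 lower with ERCC counts as library size, 890 and 1006 for genes at a mean log2 CPM of 5 or more, 785 and 984 against ethanol wells, 469 and 579 with counts thinned to the shallowest well, and 28 and 780 past 2-fold; leaving out a plate or an ActD position gave 840 to 1359 higher and 1074 to 1665 lower. Without the replicate block (no plate term) they were 1443 and 1691. With ERCC-based scaling 8 were higher and 2790 lower past 2-fold, and the other alternatives gave 14 to 26 higher and 4854 to 7682 lower. Against AZ5576 ERCC-based scaling gave 35 higher and library size alone 426, and single plates 36 to 40 higher and 67 to 71 lower. Against DRB the higher calls were 14 with ERCC-based scaling, 103 with library size alone and 29 with limma-voom, and single plates gave 18 to 24 higher and 41 to 42 lower. Against Triptolide they were 12 with ERCC-based scaling and 41 with library size alone, and single plates gave 8 to 12 higher and 20 to 25 lower.

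With ERCC-based scaling 23 genes called higher with library-based scaling changed sign, of the 106 genes recomputed under each alternative, and the cause was not tested beyond the change of scale itself: MT-TF (-0.20), HBG1 (-0.39), HBG2 (-0.39), HBZ (-0.29), GYPC (-0.45), BLVRB (-0.59), FTH1 (-0.43), FTL (-0.64), RPL28 (-0.33), RPS6 (-0.41), SNHG5 (-0.27), POLR2I (-0.39), SRSF3 (-0.40), LDHA (-0.42), GAPDH (-0.41), ACTB (-0.49), ATP5ME (-0.44), NDUFS6 (-0.39), MRPL47 (-0.31), PSMA1 (-0.43), IFITM1 (-0.36), PVT1 (-0.035) and CYTOR (-0.20). MT-CO1 and MT-CO2, not called with library-based scaling, changed sign too (both -0.76), as did HSPB1, DNAJA1, HSPE1 and FKBP4, whose values stand in the report. DESeq2 (1551 higher, 1638 lower) and limma-voom kept the direction and the call of all 106 genes. HEMGN, BLVRB and IFITM1 were not called against ethanol, which stood only in well 95 of each plate. MT-ATP8 was not called with thinned counts (adjusted p 0.0616) and MT-TF not on plate 1 alone (adjusted p 0.0555). The per-well measures kept direction and call in every alternative run.

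Reads per well limit what was seen: genes that did not reach about 17.2 CPM in enough wells were not tested, several of the largest falls rest on 5 to 25 reads over all ActD wells, copies made by amplification count more than once, and doses, solvent and strand are unknown.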
